A study of Rattus norvegicus with 6 samples.

Results

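Ion channel subunits were taken as all probe sets whose single gene symbol names a potassium (Kcn), voltage-gated sodium (Scn), voltage-gated calcium (Cacn), ClC, CLIC, TRP, acid-sensing (Asic), P2X, inositol trisphosphate receptor (Itpr) or ryanodine receptor (Ryr) gene. The rule found 216 of the 15866 probe sets on the array, for 153 genes. It works on names only. It therefore holds Trpc4ap, which encodes a protein that binds a TRP channel and is no channel itself, and the CLIC proteins, which are found in the cytosol as well as in membranes. A probe set annotated to both Trpv1 and Trpv4 was left out because it has several symbols.

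Liver endothelial cells of Wistar rats were profiled on 6 Affymetrix 230A arrays, 3 for control and 3 for cirrhotic animals, to compare gene expression between the groups. The cirrhotic rats were adult males. How cirrhosis was induced, the sex and age of the controls, the target of the antibody on the magnetic beads used to isolate the cells, and how many rats an array stands for are not stated in the labels. P-values therefore measure the spread between these arrays, which may be technical in part, and the number of arrays limits the precision.

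Ion channels are pores that let selected ions cross a membrane. Endothelial cells are not electrically excitable in the way of neurons or muscle. In them, potassium channels set the membrane potential, which drives calcium entry, and cytosolic calcium released through inositol trisphosphate receptors or entering through TRP and P2X channels controls nitric oxide and prostacyclin production and permeability. Smooth muscle cells, pericytes, bile duct cells and leukocytes carry channel sets of their own.

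Most probe sets of the channel families taken here gave weak signals in these cells. Only 34 of the 216 probe sets, for 28 genes, were bright enough to be tested, whereas 9519 of the 15866 probe sets on the whole array were. Another 12 had a mean signal over the 6 arrays of at least 100 but fell under the filter on the mean log2(signal + 16), which corresponds to a signal of about 127. The remaining 170 were dim, with a mean signal under 100. At this limit, Cacnb3 lay just inside the dim class with a mean signal of 97.3, and a probe set of Kcnj11 just outside it with 101.1. Of the dim probe sets, 60 never exceeded the brightest of 27 bacterial control probe sets on any array, a level of 21.7 to 49.9 that stands for background here, and 44 read above it on all 6.

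**Figure D1:**
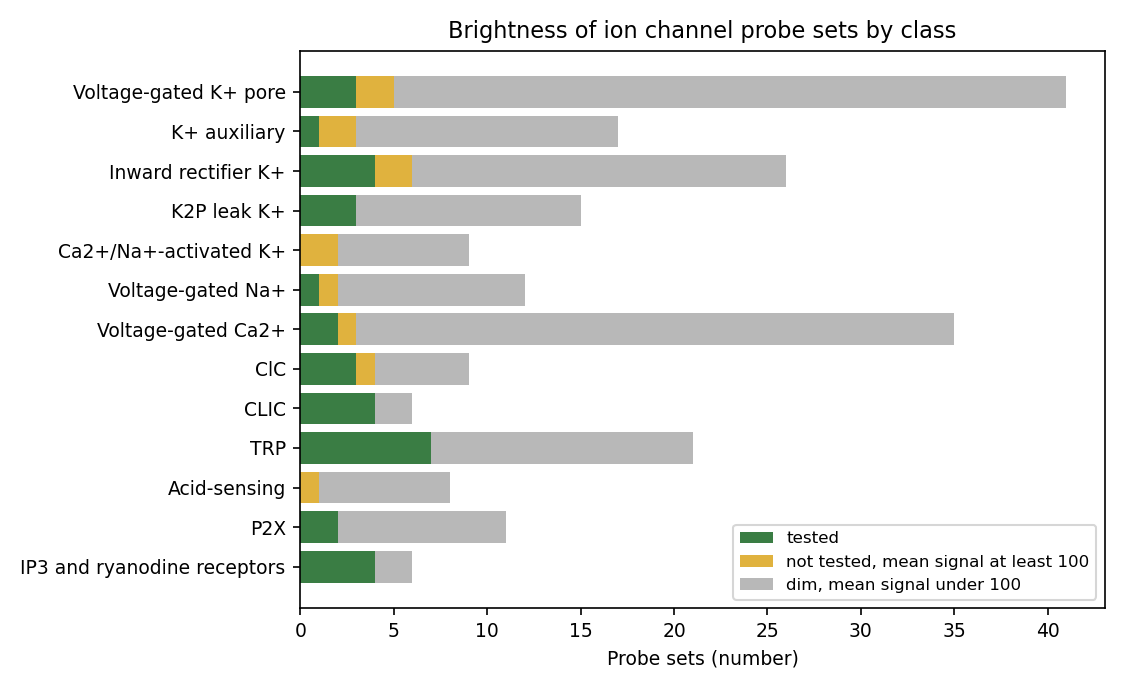
Number of ion channel probe sets in each class on the horizontal axis, split into those tested, those not tested with a mean signal of at least 100, and dim ones. The CLIC class and the IP3 and ryanodine receptors each had 4 of 6 probe sets tested, the voltage-gated potassium pore subunits 3 of 41, the voltage-gated calcium subunits 2 of 35, and the calcium- or sodium-activated potassium and acid-sensing classes none.

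By limma, with p-values adjusted over all 9519 tested probe sets, 3 channel probe sets fell in the cirrhotic arrays, those of Trpm4, Clic4 and Itpr3, and 0 rose. These 3 are 8.82% of the 34 tested, while 25.4% of all tested probe sets were called, 12.3% higher and 13.2% lower. At an unadjusted p under 0.05, 11 channel probe sets were lower and 1 was higher. The share of all tested probe sets at this unadjusted threshold is not given. It is at least the 25.4% called (12.3% higher and 13.2% lower), since an adjusted p is never under its unadjusted p. These and later unadjusted counts have no full background beside them and are not read as a result about channels. The median difference of the 34 was -0.18 on the log2(signal + 16) scale, beside -0.02 for all tested probe sets, and 23 of the 34 differences (67.6%) were negative, beside 51.8% of all. The groups did not overlap for 12 of the 34 (35.3%), 10 lower and 2 higher, beside 44.9% of all tested probe sets (24.1% lower and 20.8% higher). No tested channel probe set differed by 2-fold or more. Without control array 1 or control array 3, 1 channel probe set was called, and without cirrhotic array 2 there were 6, so single arrays decide this count.

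Some facts of all arrays bear on these values. Trimmed mean signals lay between 399.2 and 399.6, the 3' to 5' signal ratio of actin between 1.22 and 1.57, and that of hexokinase between 1.81 and 7.42, highest on control array 1. Endothelial identity was visible in both groups but weaker in cirrhotic arrays. All 6 measured sinusoidal endothelial markers were lower there, with summed signals of 13021 to 15315 against 29839 to 34671 in control. So were 8 of 9 pan-endothelial markers (14884 to 15775 against 27892 to 28324). The other pan-endothelial marker, Vwf, had a positive difference of 0.79 (SE 0.26, adjusted p = 0.0573) that did not pass. Stellate cell, myofibroblast and smooth muscle markers were higher for 7 of 8 tested, with summed signals of 14998 to 24548 against 2131 to 3693. Cholangiocyte markers were higher for 6 of 7 (4859 to 11244 against 700.1 to 1443), T and NK cell markers for 4 of 7 (1812 to 4431 against 1612 to 2496) and hepatocyte markers for 4 of 9 (33380 to 59177 against 25384 to 34338). Of macrophage markers 2 of 6 were higher and 1 lower (4901 to 10450 against 3354 to 6339). All 3 tested mast cell markers and 2 of 3 erythroid and platelet markers were higher (1127 to 4180 against 329.7 to 545.9, and 2800 to 8569 against 1301 to 2347). Among nerve and Schwann cell markers 1 was bright enough to be tested and it did not pass (391 to 402 against 377 to 561). No listed marker read 0, and the lowest value was 6.2, for Tagln on control array 3. The part of these other cells in the channel results was not tested. In such samples, fewer cells of a type and less RNA per cell cannot be told apart.

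The upstream sequences of the 3 genes that fell are shown because they are the channel genes the test called. They are the 250 bases before the transcription start in RefSeq's GRCr8 rat assembly, 5′ to 3′ on the gene's strand, in lower case with GC boxes (GGGCGG on either strand, adjacent matches may share a base) and TATA boxes (TATAAA on either strand) in capitals. Trpm4 lies at chr1:104948237-104948486 on the minus strand, Clic4 at chr5:152797119-152797368 on the minus strand and Itpr3 at chr20:5138562-5138811 on the plus strand.
Trpm4: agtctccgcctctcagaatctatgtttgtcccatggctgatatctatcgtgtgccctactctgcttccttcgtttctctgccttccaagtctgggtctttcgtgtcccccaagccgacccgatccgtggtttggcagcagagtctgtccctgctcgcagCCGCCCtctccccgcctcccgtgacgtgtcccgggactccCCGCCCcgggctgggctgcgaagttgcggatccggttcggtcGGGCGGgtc
Clic4: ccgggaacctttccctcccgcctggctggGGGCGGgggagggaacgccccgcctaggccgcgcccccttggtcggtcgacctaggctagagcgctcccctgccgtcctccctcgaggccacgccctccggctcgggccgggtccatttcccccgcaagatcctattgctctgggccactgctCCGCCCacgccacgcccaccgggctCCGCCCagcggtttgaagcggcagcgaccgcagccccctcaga
Itpr3: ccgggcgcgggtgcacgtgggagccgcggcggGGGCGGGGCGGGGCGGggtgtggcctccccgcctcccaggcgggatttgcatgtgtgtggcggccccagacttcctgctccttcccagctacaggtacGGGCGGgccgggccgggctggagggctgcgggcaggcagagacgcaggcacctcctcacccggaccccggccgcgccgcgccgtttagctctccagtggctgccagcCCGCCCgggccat
These windows held 3, 3 and 5 GC boxes and no TATA box, with 21, 26 and 28 CpG dinucleotides. A GC box was present in 30.5% of all 33469 windows of this length in the table and in 63 of the 129 windows (48.8%) found for 115 of the 153 channel genes. A TATA box was present in 12.9% of all windows and 6.2% of those of channel genes. Among the 27 windows of tested channel genes, 59.3% held a GC box and 0 a TATA box, so neither is particular to the 3 shown.

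Trpm4, a TRP channel that calcium opens to sodium and potassium, had the largest difference among the tested channels. Its signal was 286.6, 234.7 and 359.7 on control arrays 1, 2 and 3 and 157.6, 156.1 and 150.3 on cirrhotic arrays 1, 2 and 3. The cirrhotic values lay close together and below every control value. Trpm4 fell by 0.84 (SE 0.17, n = 3 per group, adjusted p = 0.0113), a level 1.79-fold lower on this scale, and it was also called with each of the 6 arrays left out in turn.

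Clic4, a CLIC protein abundant in endothelium that takes part in the formation of vessel lumens, gave the highest channel signal, and its brightest probe set read 3858.2, 3094.8 and 3879.2 in control and 2510.2, 2552.0 and 2206.8 in cirrhotic arrays. The groups did not overlap. On this probe set Clic4 fell by 0.57 (SE 0.13, adjusted p = 0.0154), but it missed the threshold with control array 1 left out (adjusted p = 0.0621), and likewise for control array 3 (adjusted p = 0.0689). The 2 dimmer Clic4 probe sets did not pass, with differences of -0.30 (SE 0.12, adjusted p = 0.104) and -0.27 (SE 0.31, adjusted p = 0.561). Clic1, its close relative, read 2180.6, 2316.0 and 2204.9 in control and 2082.6, 2491.9 and 1602.4 in cirrhotic arrays. Its groups overlapped, and its difference of -0.14 (SE 0.16, adjusted p = 0.570) did not pass.

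Itpr3, the type 3 inositol trisphosphate receptor, known in liver from the apical pole of bile duct cells, read 349.2, 254.9 and 313.2 in control and 187.2, 237.7 and 151.6 in cirrhotic arrays. All cirrhotic values lay below the control values, by a small margin for cirrhotic array 2. Itpr3 fell by 0.64 (SE 0.19, adjusted p = 0.0467). Leaving out any 1 array other than those numbered 2 took it past the threshold, to adjusted p-values between 0.0966 and 0.145. Between the groups its direction was opposite to that of the cholangiocyte markers, which were higher for 6 of 7 tested. Within the cirrhotic arrays, Itpr3 and the summed cholangiocyte markers (10339, 11244 and 4859) were both highest on array 2 and lowest on array 3. So were the sums of T and NK cell, mast cell, and erythroid and platelet markers. The part of these cells in the Itpr3 values was not tested.

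**Figure D2:**
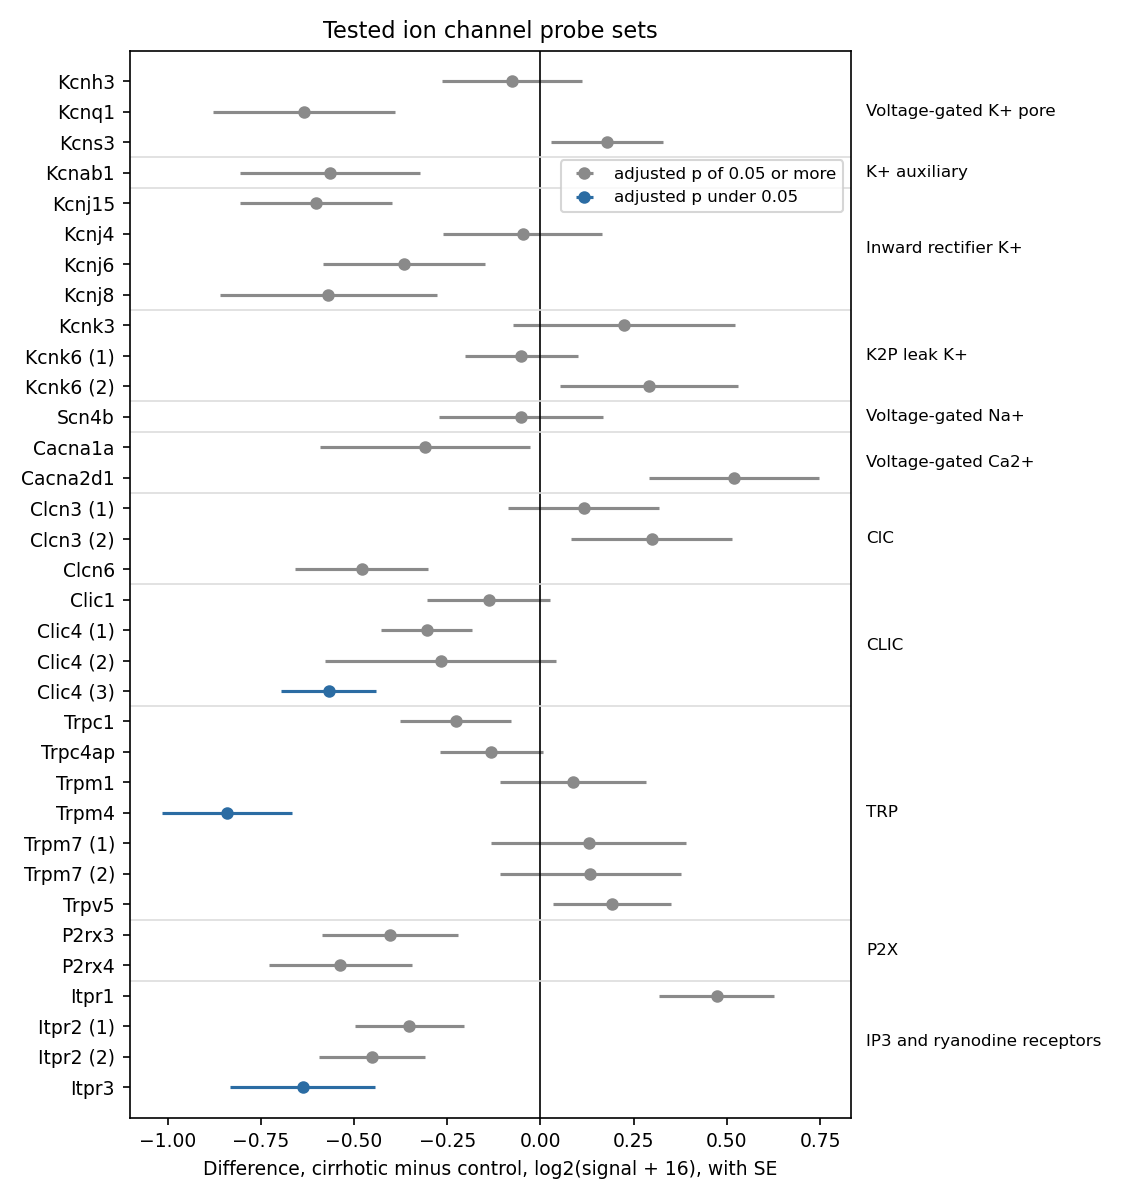
Differences in log2(signal + 16), cirrhotic minus control, for the 34 tested probe sets grouped by class, with bars for the standard error. Numbers in brackets tell apart probe sets of 1 gene. The 3 called probe sets, of Clic4, Trpm4 and Itpr3, are all below 0, and Trpm4 is lowest at -0.84.

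The probe sets of the other inositol trisphosphate receptors did not pass the threshold. Itpr1, the type 1 receptor, read 379.5, 402.6 and 450.3 in control and 542.7, 689.8 and 506.8 in cirrhotic arrays. All cirrhotic values were higher, and the difference was 0.47 (SE 0.15, adjusted p = 0.0587), which passed without cirrhotic array 3 (adjusted p = 0.0407) and with array weights (adjusted p = 0.0246). Itpr2, the type 2 receptor and the main one of hepatocytes, read 366.6, 431.2 and 413.4 in control and 267.8, 271.8 and 334.9 in cirrhotic arrays on its brighter probe set. That is a difference of -0.45 (SE 0.14, adjusted p = 0.0511) without overlap, which passed under median centring, quantile normalization, the stricter filter, array weights, without shared-sequence probe sets and without cirrhotic array 3. The second Itpr2 probe set differed by -0.35 (SE 0.15, adjusted p = 0.114). The ryanodine receptors Ryr1 and Ryr2, calcium release channels of muscle, were dim, with a mean signal of 13.1 for Ryr1 and every Ryr2 value at or under 6.0.

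Among the remaining tested TRP genes none passed. Trpc1, a cation channel subunit of broad expression, read 319.5, 327.0 and 263.4 in control and 240.5, 291.6 and 238.1 in cirrhotic arrays, with a difference of -0.23 (SE 0.15, adjusted p = 0.294). The groups overlapped through cirrhotic array 2. The channel kinase Trpm7, which carries magnesium, had differences of 0.13 (SE 0.24, adjusted p = 0.721) and 0.13 (SE 0.26, adjusted p = 0.750) on its pair of probe sets, with the highest value on cirrhotic array 2 in both. Trpc4ap, the adaptor protein, had a mean signal of 860.4 and a difference of -0.13 (SE 0.14, adjusted p = 0.521). Trpm1 and Trpv5, channels of retina and kidney, had differences of 0.09 and 0.19 at mean signals of 130.9 and 170.0. On this Trpv5 probe set the groups did not overlap, but the difference did not pass (SE 0.16, adjusted p = 0.402). The other Trpv5 probe set was dim and lay within the bacterial controls on all 6 arrays, and its groups overlapped. Trpv4, an endothelial calcium channel opened by stretch and lipids, was dim. It read 71.9, 89.3 and 64.8 in control and 37.9, 48.2 and 57.2 in cirrhotic arrays, without overlap.

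P2X channels are opened by extracellular ATP. P2rx4, one of the channels with a part in flow sensing by endothelium, read 709.2, 710.2 and 791.2 in control and 507.7, 647.6 and 384.8 in cirrhotic arrays. Every cirrhotic value was lower, and the difference of -0.54 (SE 0.19, adjusted p = 0.0750) did not pass, although it did without cirrhotic array 2 (adjusted p = 0.0223) and with array weights (adjusted p = 0.01999). P2rx3, a subunit of sensory neurons, was close to the filter, with a difference of -0.40 (SE 0.18, adjusted p = 0.140). P2rx1, of platelets and smooth muscle, and P2rx7, of macrophages, were dim with mean signals of 65.1 and 86.9 and overlapping groups.

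Of the inward rectifiers, which hold the resting potential near that of potassium, Kcnj8 gave the highest signal. It encodes the pore of the ATP-sensitive potassium channel of vascular smooth muscle and pericytes, and read 753.9, 630.1 and 869.8 in control and 597.1, 300.3 and 679.8 in cirrhotic arrays. The groups overlapped through cirrhotic array 3, and the difference of -0.57 (SE 0.29, adjusted p = 0.186) did not pass. Abcc9, which encodes the regulatory subunit that joins Kcnj8 in this channel and is not a member of the family by name, read 216.9, 156.7 and 173.9 in control and 999.8, 344.7 and 663.6 in cirrhotic arrays. Abcc9 rose by 1.68 (SE 0.34, adjusted p = 0.0106), and was called with each array left out in turn. Both genes had their lowest cirrhotic signal on cirrhotic array 2. On that array the summed signal of stellate and smooth muscle markers was 14998 against 24548 and 19344 on cirrhotic arrays 1 and 3. The summed signal of hepatocyte markers was lowest there too, at 33380 against 43857 and 59177. Between the groups, stellate and smooth muscle markers were higher in cirrhotic arrays for 7 of 8 tested and hepatocyte markers for 4 of 9. The difference of Abcc9 had the same direction and that of Kcnj8 the opposite one. The part of these cells in either gene's values was not tested, nor was the difference between both genes.

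Kcnj15, an inward rectifier of kidney and epithelia, had 2 probe sets that were both lower in cirrhotic arrays without overlap. The tested one read 146.9, 211.0 and 133.6 in control and 106.8, 99.1 and 95.9 in cirrhotic arrays, a difference of -0.60 (SE 0.20, adjusted p = 0.0642). It passed under quantile normalization (adjusted p = 0.0297), median centring (adjusted p = 0.0306), array weights (adjusted p = 0.0461) and without the trend (adjusted p = 0.0432). The other was left out of the test by the filter although its control signals were higher, and is described with the untested probe sets. Kcnj4 and Kcnj6, subunits of brain and heart channels, had differences of -0.05 and -0.37 on their tested probe sets and did not pass. Their other probe sets were dim, with overlapping groups. Kcnj2, the classic inward rectifier of endothelium, was dim, with 30.0, 63.4 and 25.4 in control and 39.0, 32.5 and 41.2 in cirrhotic arrays.

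The voltage-gated potassium class had 3 of 41 probe sets tested and none called. Kcnq1, a slowly activating channel of heart and epithelia, read 203.8, 212.6 and 290.8 in control and 129.9, 207.5 and 110.4 in cirrhotic arrays, with a difference of -0.63 (SE 0.25, adjusted p = 0.0946). Its groups overlapped only through cirrhotic array 2, and without that array the difference was -0.87 (adjusted p = 0.0248). It also passed with array weights (adjusted p = 0.0227). Kcnh3 and Kcns3 had differences of -0.08 (SE 0.19) and 0.18 (SE 0.15). Kcnab1, a beta subunit that modulates these channels, was the only potassium channel auxiliary subunit tested, at -0.56 (SE 0.24, adjusted p = 0.123, and 0.0420 with array weights). Among the K2P channels, which carry leak currents, Kcnk6 had differences of -0.05 and 0.29 on its pair of probe sets. Kcnk3 had 0.22 on its tested probe set, and none of these passed. The other Kcnk3 probe sets were dim, with negative differences when limma was fitted with no filter (-0.24, adjusted p = 0.698, and -0.56, adjusted p = 0.136). The second had no overlap but lay within the bacterial controls on all 6 arrays, so no change in its level can be read.

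The calcium- or sodium-activated potassium class, which includes the channels behind endothelium-dependent hyperpolarisation, had no probe set bright enough to be tested. Kcnn3, the small-conductance channel of endothelium, read 36.2, 30.3 and 18.5 in control, all within the bacterial controls, and 47.8, 18.5 and 28.0 in cirrhotic arrays. Kcnma1, the large-conductance channel of smooth muscle, had 3 probe sets with mean signals of 13.7, 46.3 and 59.1, and its beta subunit Kcnmb1 one of 24.0. Kcnn4, the intermediate-conductance channel, is described next.

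ClC chloride channels and exchangers had 3 of 9 probe sets tested. Clcn6, an endosomal exchanger, read 298.3, 264.7 and 303.9 in control and 167.8, 259.5 and 189.5 in cirrhotic arrays. All cirrhotic values were lower, with a difference of -0.48 (SE 0.18, adjusted p = 0.0844) that passed without cirrhotic array 2 (adjusted p = 0.0252) and with array weights (adjusted p = 0.0110). Clcn3, another endosomal exchanger, had differences of 0.12 and 0.30 on its tested probe sets and did not pass. Of the voltage-gated calcium and sodium channels, which drive excitable cells, Cacna2d1, a subunit that brings calcium channels to the membrane, differed by 0.52 (SE 0.23, adjusted p = 0.131, and 0.0308 with array weights), Cacna1a by -0.31 and Scn4b by -0.05, and none of the 3 passed. The other Cacna1a probe sets were dim, with overlapping groups. Cacna1c, the pore of the calcium channel of smooth muscle, had 2 dim probe sets with mean signals of 56.3 and 95.9. The brighter read 65.4, 81.9 and 63.1 in control and 141.9, 92.3 and 131.1 in cirrhotic arrays, without overlap.

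**Figure D3:**
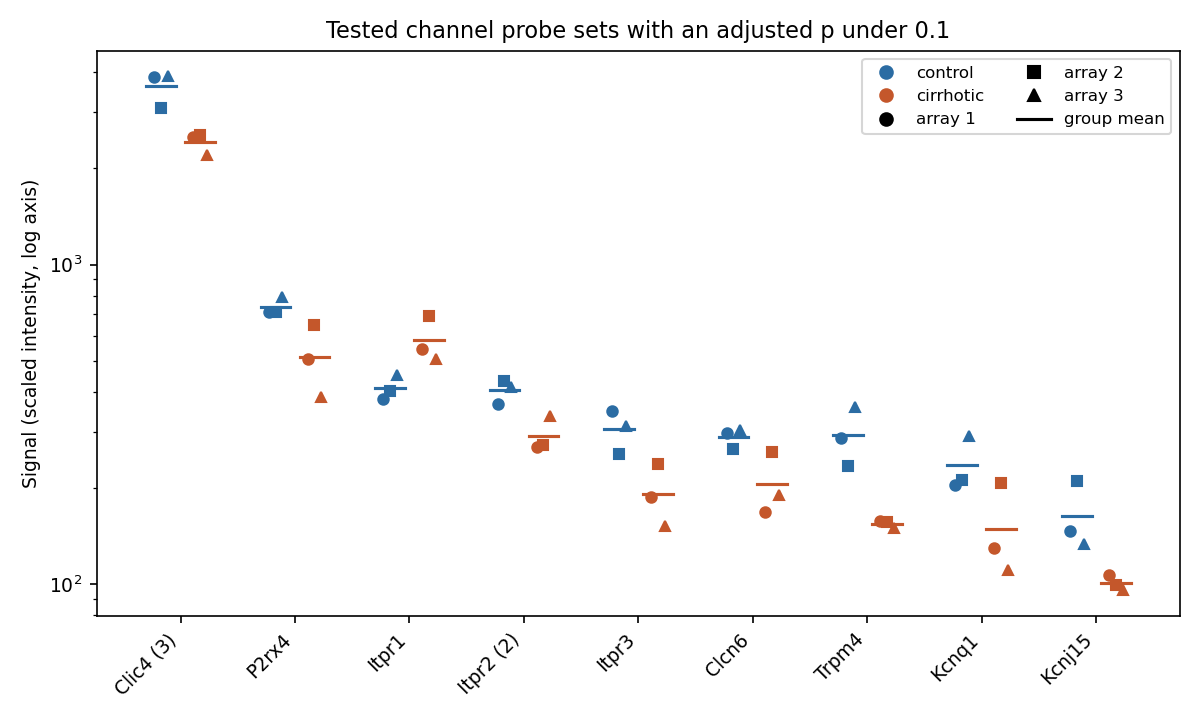
Signal on each array, on a log axis, for the 9 tested channel probe sets with an adjusted p under 0.1, with control in blue, cirrhotic in orange, array number as symbol and a bar at each group's mean. Clic4, Itpr3 and Trpm4 passed the threshold, Itpr1 is the one with higher cirrhotic signals, and Kcnq1 is the one whose groups overlap.

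The probe sets left out of the test held the widest gaps between the groups. Of the 182, 37 (20.3%) had no overlap, 14 higher and 23 lower, beside 22.5% of all 6347 probe sets left out (12.2% higher and 10.3% lower). Among the 170 dim ones 32 (18.8%) had none, 13 higher and 19 lower, beside 19.9% of all 5366 dim probe sets (10.1% higher and 9.8% lower). When limma was fitted with no filter over 15866 probe sets, 15.5% of all were called. Of the 182 channel probe sets that the main test left out, 8 (4.4%) were called in this fit, 6 higher and 2 lower, beside 6.77% of all probe sets left out. The differences, standard errors and adjusted p-values given next for these 8 come from this fit.

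Kcnd3, a voltage-gated potassium channel of heart, brain and smooth muscle, read 187.5, 166.5 and 159.8 in control and 17.7, 22.4 and 23 in cirrhotic arrays. All control signals stood far above the bacterial controls, and 2 of 3 cirrhotic signals lay within them. The difference was -2.34 (SE 0.18, adjusted p = 0.000811) and was called with each array left out in turn. Its size depends on the added 16, since most cirrhotic signals were not above background, and it is no measure of the fold. A second Kcnd3 probe set read 34.5, 67.0 and 40.9 in control and 14.8, 40.9 and 56.8 in cirrhotic arrays, and its groups overlapped (-0.30, adjusted p = 0.617). Both probe sets are annotated to the gene as recognising alternative transcripts, and which transcripts each detects is not known here.

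The dimmer-in-cirrhosis Kcnj15 probe set read 230.7, 231.2 and 345.1 in control and 36.3, 41.4 and 58.8 in cirrhotic arrays. The gap was wide, with 1 of 3 cirrhotic signals within the bacterial controls. The difference was -2.21 (SE 0.24, adjusted p = 0.00182), called with each array left out in turn, against -0.60 on the tested probe set of the same gene.

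Scn7a, a sodium channel relative that senses extracellular sodium, read 51.9, 47.1 and 34.8 in control and 156.4, 116.1 and 158.2 in cirrhotic arrays. All values lay above the bacterial controls and the groups were well apart, with a difference of 1.40 (SE 0.21, adjusted p = 0.00600). Scn3a, a pore subunit of developing neurons, read 8.7, 13.3 and 9.3 in control and 66.4, 73.6 and 50.4 in cirrhotic arrays (1.58, SE 0.18, adjusted p = 0.00224). All its control signals lay within the bacterial controls, so the level was at least 1.38-fold higher on the log2(signal + 16) scale. Asic2, an acid-sensing sodium channel of sensory nerves and vascular smooth muscle, read 14.2, 13.2 and 13 in control and 95.4, 66.9 and 128.5 in cirrhotic arrays (1.90, SE 0.23, adjusted p = 0.00270). Control was again within the bacterial controls, and the level was at least 1.93-fold higher. A second Asic2 probe set lay within the bacterial controls on all arrays. The calls of Scn7a, Scn3a and Asic2 held with each array left out in turn.

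The remaining calls of this fit were less stable. Kcnn4, the intermediate-conductance calcium-activated potassium channel of endothelium, T cells, red cells and activated fibroblasts, read 38.7, 25.4 and 29.6 in control and 103.2, 128.4 and 54.0 in cirrhotic arrays. The groups did not overlap, with the lowest cirrhotic value on array 3. Its difference of 1.18 (SE 0.29, adjusted p = 0.0344), a level at least 1.86-fold higher, missed the threshold without any 1 array except cirrhotic array 3 (adjusted p from 0.0670 to 0.120). On that array the summed signal of cholangiocyte markers was also lowest, 4859 against 10339 and 11244, as were those of T and NK cell markers (1812 against 3481 and 4431), erythroid and platelet markers (2800 against 8302 and 8569), mast cell markers (1127 against 3435 and 4180) and macrophage markers (4901 against 10450 and 8800). The part of these cells in the result was not tested.

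Clic5, a CLIC protein tied to the actin cortex, read 22.9, 12.0 and 7.8 in control and 58.6, 38.0 and 62.4 in cirrhotic arrays (1.20, SE 0.24, adjusted p = 0.0172, at least 1.19-fold higher). Leaving out control array 2 or 3, or cirrhotic array 1, took it past the threshold (adjusted p from 0.0564 to 0.0681). Trpc6, a receptor-operated cation channel of smooth muscle and podocytes, read 19.2, 26.6 and 13.5 in control and 68.2, 48.7 and 42.0 in cirrhotic arrays (0.95, SE 0.22, adjusted p = 0.0273, at least 1.19-fold higher). It missed the threshold when control array 1 or 3, or cirrhotic array 1 or 2, was left out (adjusted p from 0.0552 to 0.0950). Asic2, Clic5 and Scn7a had their lowest cirrhotic signal on cirrhotic array 2. Stellate and smooth muscle markers were lowest there too (14998 against 24548 and 19344 on arrays 1 and 3), as were hepatocyte markers (33380 against 43857 and 59177). Trpc6 and Scn3a had their lowest cirrhotic signal on cirrhotic array 3, where the marker sums given for Kcnn4 were lowest. The part of these markers in the results was not tested.

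**Figure D4:**
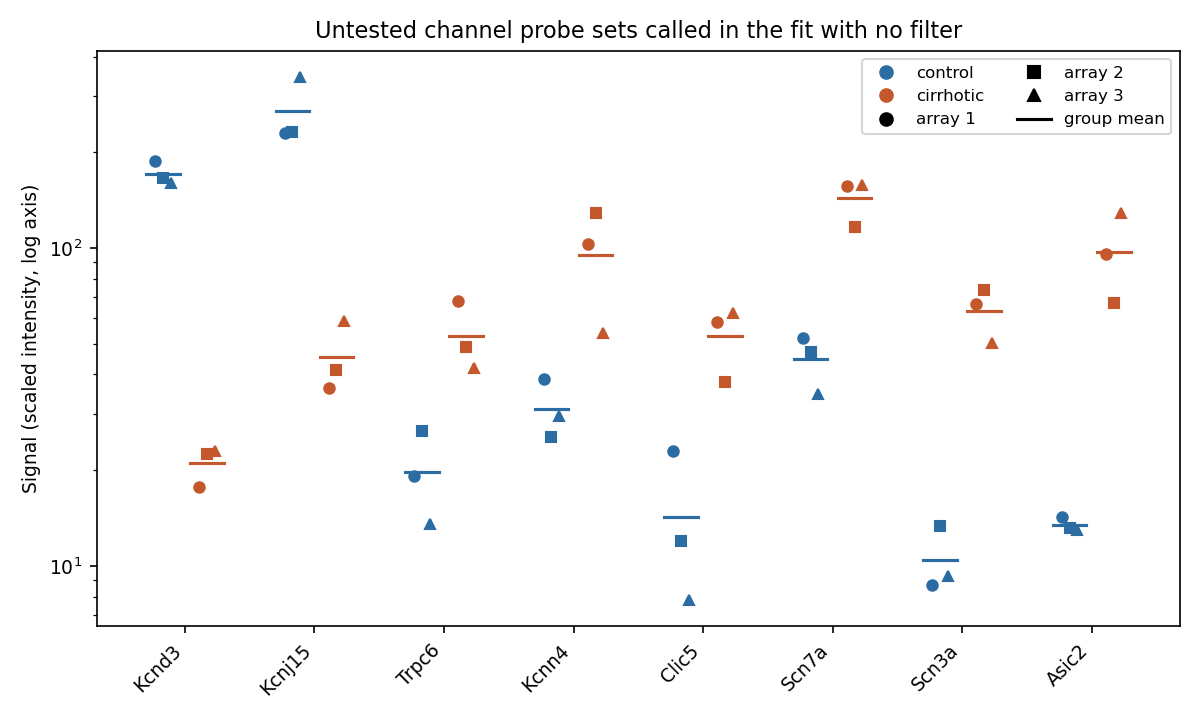
Signal on each array, on a log axis, for the 8 channel probe sets left out of the main test that were called when limma was fitted with no filter, with control in blue, cirrhotic in orange, array number as symbol and a bar at each group's mean. Kcnd3 and Kcnj15 had control signals of at least 159.8 and cirrhotic signals of at most 58.8, and the other 6 were higher in cirrhotic arrays.

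Other wide gaps among untested probe sets were not called even then. Trpv2, a calcium-permeable channel of macrophages and neurons, read 21.5, 9.6 and 34.3 in control and 122.4, 67.0 and 43.5 in cirrhotic arrays (1.27, adjusted p = 0.0560). On 2 of 3 control arrays it lay within the bacterial controls. Clic3 read 64.8, 105.5 and 53.6 in control and 38.8, 43.2 and 19.3 in cirrhotic arrays (-0.86, adjusted p = 0.0920). Scn10a, a sodium channel of pain fibres, read 111.1, 139.2 and 86.3 in control and 71.3, 42.4 and 76.9 in cirrhotic arrays (-0.70, adjusted p = 0.116). Cacng3, a brain subunit, had no overlap either but lay within the bacterial controls on all 6 arrays, so no change in its level can be read.

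Ion transport genes outside the channel families were examined on lists chosen with earlier results known. Of 52 on the array, by the brightest probe set of each gene, 30 were tested and 10 passed, 6 higher and 4 lower, beside the 25.4% called over all tested probe sets. This count takes 1 probe set a gene, and its difference from that of the channels was not tested. Of the calcium entry, pump and exchanger genes 1 of 11 rose and 2 fell. Orai1, the pore of store-operated calcium entry, which opens when stores emptied through inositol trisphosphate receptors call for calcium, read 991, 1195.8 and 1186.2 in control and 461.5, 683.6 and 393.7 in cirrhotic arrays. The groups lay far apart, and Orai1 fell by 1.14 (SE 0.21, adjusted p = 0.00694), called with each array left out in turn. Its partner and store sensor Stim1 differed by -0.28 (SE 0.14, adjusted p = 0.176). The stretch channel Piezo1 differed by -0.05 (SE 0.14, adjusted p = 0.811), and neither passed. The sodium-calcium exchanger Slc8a1 read 54.5, 50.3 and 43.9 in control and 509.9, 301.7 and 221.5 in cirrhotic arrays and rose by 2.38 (SE 0.29, adjusted p = 0.00137). The Golgi calcium pump Atp2c1 also fell (-0.72, SE 0.16, adjusted p = 0.0137), though not when control array 3 (0.0544) or cirrhotic array 1 (0.0547) was left out.

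Of the sodium pump and epithelial sodium channel genes 2 of 7 rose and 0 fell. At an unadjusted p under 0.05, 3 of them were higher and 0 lower. At that threshold the calcium entry, pump and exchanger genes had 2 higher and 2 lower. The other anion, cation and large-pore channels had 4 higher and 3 lower. Fxyd5, a regulator of the sodium pump, read 466.9, 464 and 427.4 in control and 1495.3, 1635.4 and 878.8 in cirrhotic arrays, and rose by 1.48 (SE 0.23, adjusted p = 0.00358). Atp1b1, the pump's beta subunit, read 300.9, 345.9 and 178 in control and 1716, 2021.6 and 504.8 in cirrhotic arrays. It rose by 2.12 (SE 0.50, adjusted p = 0.0180), though the adjusted p was 0.0733 when either control array 3 or cirrhotic array 1 was left out. Both genes were lowest among the cirrhotic arrays on array 3, as were the marker sums given for Kcnn4. Those are of cholangiocyte, T and NK cell, erythroid and platelet, mast cell and macrophage markers, and the part of these cells was not tested.

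Of the other anion, cation and large-pore channels 3 of 12 rose and 2 fell. Lrrc8a, the essential subunit of the volume-regulated anion channel, read 2741.7, 2005.5 and 2422.6 in control and 1446.7, 1030.9 and 1283.1 in cirrhotic arrays and fell by 0.92 (SE 0.17, adjusted p = 0.00726). Ttyh3, an anion channel relative, fell from 2647, 2012.8 and 2328.3 to 1042.5, 1282.6 and 964.9, by 1.08 (SE 0.16, adjusted p = 0.00296). Both were called with each array left out in turn. The mitochondrial porins Vdac2 and Vdac3, named after their values were seen, rose by 0.49 (SE 0.10, adjusted p = 0.0128) and 0.55 (SE 0.12, adjusted p = 0.0145). Vdac2 missed the threshold when control array 3 was left out (0.0568), and Vdac3 when control array 2 (0.0503) or cirrhotic array 1 (0.0607) was.

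**Figure D5:**
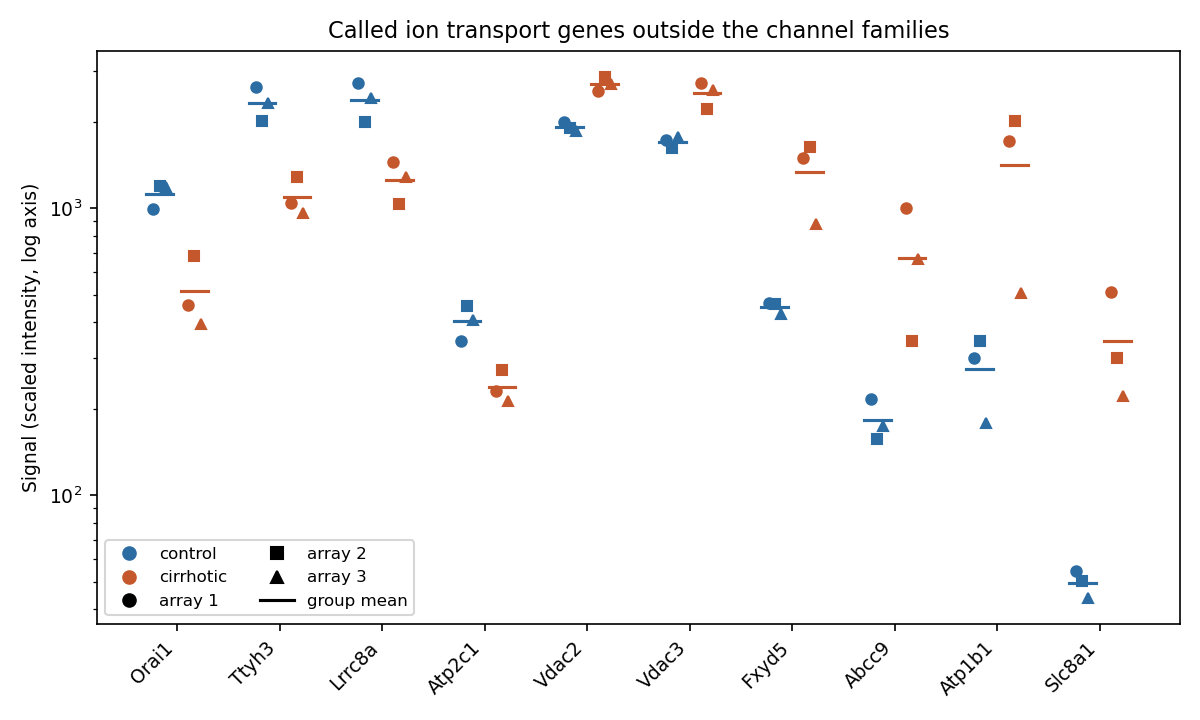
Signal on each array, on a log axis, for the 10 called ion transport genes that are outside the channel families, with control in blue, cirrhotic in orange, array number as symbol and a bar at each group's mean. Orai1, Ttyh3, Lrrc8a and Atp2c1 were lower and the other 6 higher in cirrhotic arrays, with no overlap between groups for any of the 10. They were picked by their adjusted p in these data, which favours genes without overlap. Of all tested probe sets, 44.9% had none.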

How the data were processed

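The authors deposited intensity values that are linear, with a single signal for each probe set on each array. The authors hybridised cRNA after the array maker's manual, per the labels' protocols; the summary software is not stated in them. Trimmed means (2% off each end) were nearly equal, so the authors' scaling was kept. That scaling hides any change in a cell's total RNA. Groups and array numbers came from sample titles, and the unnumbered control was called array 1. At most 47 values were identical between 2 arrays, so none was a copy.

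Values became log2(signal + 16), with 16 the rounded 10th percentile. Control probe sets (57) were set aside, and the dimmest 40% of the rest by mean log2 were not tested. Cirrhotic was compared with control in limma 3.58.1 (R 4.3.3; lmFit, eBayes with trend), with two-sided p-values, Benjamini-Hochberg adjustment over 9519 probe sets and a threshold of 0.05. A group with every array at or under the highest bacterial control was set at that level for a bound. The test was checked on simulated data.

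Symbols came from the platform annotation; all 153 channel gene identifiers were in the GRCr8 gene table. Named were every called channel probe set, the 10 brightest genes, 23 genes of vascular interest whatever their result (Ryr3 was not analysed here), the 5 widest gaps without overlap in each direction among untested probe sets, and, of each related list, called genes among the 3 smallest p-values. Other genes described, including Stim1, Piezo1, Vdac2, Vdac3 and further tested channels, were chosen after their values were seen. Members and lists were chosen with earlier results of these data known. Alternatives covered normalization, pseudocount, filter, variance model, array weights, shared-sequence probe sets, a block for the array number, and leaving out single arrays. Leaving arrays out of the fit with no filter was chosen after seeing the data.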

Additional observations from a re-analysis of the deposited data

How the results depend on the processing

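Signal over background is a limit, since 182 of the 216 channel probe sets were left out of the test, and a gap between groups of dim signals depends on the added 16. Against 3 channel probe sets called, all lower, quantile normalization and median centring each gave 5, all lower, array weights gave 11 (2 higher and 9 lower), and no filter gave 10 (6 higher and 4 lower), of which 2 were among the 3. With each array left out in turn the count lay between 1 and 6, with 0 to 1 higher and 1 to 6 lower. Over all probe sets, 2421 were called, 3772 with array weights and between 1341 and 2472 with an array left out. The median difference of the channel probe sets was -0.18, against -0.051 with no filter, where 216 were included, and -0.08 with array weights on the same 34. It lay between -0.24 and -0.12 with an array left out. No tested channel probe set called in any of these fits changed direction. Itpr3 lost its call with no filter (adjusted p = 0.0770).

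With array numbers 2 and 3 of the titles as a replicate block, limma called 904 probe sets and 0 channel probe sets, 0 higher and 0 lower, with 3 at an unadjusted p under 0.05. Deviations of same-numbered arrays from their group means correlated at -0.01 for number 2 and -0.16 for number 3, so the numbers were not taken to pair the arrays. The block leaves 1 residual degree of freedom.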

Other observations

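Some further genes left out of the test, chosen after their values were seen, had signals that are not described above. Cngb1, a subunit of the cyclic nucleotide-gated channels of photoreceptors, read 58.3, 57 and 50.2 in control and 163.2, 161.8 and 145.8 in cirrhotic arrays. Kcne3, a potassium channel beta subunit of epithelia, spread widely within control (18.0, 105.2 and 185.7) and within cirrhotic arrays (249.5, 127.3 and 104.4). Kcnk5, a leak channel of epithelia, read 12.3, 64.3 and 11.9 in control and 97.0, 112.7 and 46.3 in cirrhotic arrays, where control array 2 overlapped with the cirrhotic range.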
